A study of Mus musculus with 21 samples.

Results

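Nicotinic acetylcholine receptor subunits were followed through cultured mouse cortical neurons that carried or lacked mutant human tau and were given AdipoRon or its vehicle. The members were the rows whose gene symbol was Chrna1, Chrna2, Chrna3, Chrna4, Chrna5, Chrna7, Chrnb1, Chrnb2, Chrnb3 or Chrnb4. All 10 were listed in all 4 deposited tables, among 19399 genes listed in every table and 22040 listed in at least 1. The widest contrast lay between Chrnb3, whose mean level was 36.2-fold lower with AdipoRon than with DMSO, and Chrnb2, the most abundant subunit, whose 4 mean levels lay within 0.04 of each other on the log2 scale.

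RNA came from 21 cultures of primary neurons taken from the cortex of newborn pups. Tau neurons carried human P301S tau under the prion promoter, which is not specific to neurons, received pre-formed tau fibrils on day 7 in vitro and were kept for 18 more days. WT neurons lacked the transgene. The study's results date the RNA of both genotypes from the fibril seeding, while its methods name seeding only for transgenic neurons. Whether WT neurons received fibrils is therefore unclear, and the transgene and the fibrils cannot be told apart from these sources. AdipoRon, an agonist of both adiponectin receptors, or DMSO was given for 24 hours, at 10 µM per the sample labels (the protocol text has 10 mM). Of the Tau cultures 5 received DMSO and 5 AdipoRon, and of the WT cultures 5 and 6. Cultures of all groups had been exposed to AraC, which kills dividing glia. The study states for its experiments in general that cells from 1 animal were split between the treatments. The 5 and 6 WT cultures cannot all form such pairs. Its rule of repeated independent sessions excepts the RNA sequencing.

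Nicotinic receptors are ligand-gated cation channels made of 5 subunits around a central pore. In the brain, α4 with β2 forms the high-affinity receptor and α7 forms a homomeric, calcium-permeable one, while α5 and β3 are accessory subunits that join other α and β subunits without making the usual agonist site. The genes for α5, α3 and β4 lie side by side and their products assemble in autonomic ganglia and the habenula, β3 is best known from dopaminergic and retinal neurons where it joins α6, and α1 and β1 belong to the receptor of skeletal muscle.

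The measurement was the authors' mean level of each gene in a table, in log2 CPM (counts scaled to the size of the library). Each table covered a pair of groups, here called pools: the DMSO pool (Tau and WT, 10 cultures), the AdipoRon pool (Tau and WT, 11), the Tau pool (both treatments, 10) and the WT pool (both treatments, 11). A pool mean has no SD, so none of the differences below could be set against the spread between cultures, none was tested, and the depth of each culture is unknown. The tables were normalized separately, which holds for every level set across pools. The AdipoRon and DMSO pools share no culture, nor do the Tau and WT pools, and only these pairs were subtracted. A difference of at least 1 (log2) was counted as higher or lower. The 4 deposited tables compare the groups directly, and those comparisons were not used here.

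The members lie on 7 chromosomes (RefSeq, GRCm38.p6, the release of the mm10 build that the study's methods name). Chrnb3 occupies chr8:27368711-27399730. Chrna5, Chrna3 and Chrnb4 lie next to each other at chr9:54980827-55011420, chr9:55010117-55026562 and chr9:55028154-55048953. RefSeq promoter windows of that build matched 8 of the 10 members, all but Chrna2 and Chrnb3. The 250 bases before the start are shown for Chrna3, the matched member with the largest treatment difference, and for Chrnb2, the one with the smallest. Capitals mark matches to motifs that were searched on both strands.
Chrna3, minus strand of chr9:55026563-55026812: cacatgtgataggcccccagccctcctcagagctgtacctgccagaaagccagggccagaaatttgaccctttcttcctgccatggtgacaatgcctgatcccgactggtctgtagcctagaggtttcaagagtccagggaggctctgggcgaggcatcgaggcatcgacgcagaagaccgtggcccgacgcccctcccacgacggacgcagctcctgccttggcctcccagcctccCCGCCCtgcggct
Chrnb2, minus strand of chr3:89764633-89764882: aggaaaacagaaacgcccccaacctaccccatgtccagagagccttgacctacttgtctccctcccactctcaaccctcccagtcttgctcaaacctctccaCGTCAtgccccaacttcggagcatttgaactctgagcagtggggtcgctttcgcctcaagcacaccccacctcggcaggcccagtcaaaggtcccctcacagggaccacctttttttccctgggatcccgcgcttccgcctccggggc
Both are written 5′ to 3′ on the strand of the gene. The capitals in Chrna3 are a GC box (GGGCGG, here on the opposite strand), which begins at position −13 from the start and which 46.4% of 20767 promoter windows of listed genes hold. Those in Chrnb2 are the core of a cAMP response element (TGACG, on the opposite strand) at position −148, which 22.1% of windows hold. Neither held the full cAMP response element TGACGTCA, which contains that core and was found in 2.03% of windows, the AP-1 motif TGANTCA (5.24%) or the TATA motif TATAAA (8.37%). GC content was 63.2% in Chrna3 and 59.6% in Chrnb2, beside a median of 57.2% over all windows.

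Levels of different subunits were compared per length, as CPM per kb of the canonical transcript. Chrnb2, the main β subunit of brain receptors, stood at 19.7, 19.2, 19.6 and 19.5 CPM per kb in the DMSO, AdipoRon, Tau and WT pools, and came first in each. Chrna4, its usual α partner, was second with 6.94, 5.47, 5.43 and 6.88. Together they made up most of the summed level of the 10 members, Chrnb2 holding 53.0% in the DMSO pool and 61.0% in the AdipoRon pool and Chrna4 18.7% and 17.4%. Chrnb1, the muscle β subunit, ranked 3 in every pool (3.68, 3.23, 3.47 and 3.40 CPM per kb), and Chrna7 ranked 4 (2.12, 1.76, 1.95 and 1.93).

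The rank of Chrnb3 spanned the widest range of the 10. Chrnb3 reached 1.89 CPM per kb in the DMSO pool and 1.34 in the Tau pool, rank 5 in both and the next below Chrna7. It stood at 0.563 in the WT pool, rank 7, and at 0.0523 in the AdipoRon pool, rank 10. Its share of the summed subunit level was 5.09% in the DMSO pool, 3.96% in the Tau pool, 1.63% in the WT pool and 0.167% in the AdipoRon pool. Chrna5 (0.827 to 1.10 CPM per kb), Chrna3 (0.396 to 1.01) and Chrnb4 (0.260 to 0.430) followed one another below Chrna7. Chrna1 (0.0939 to 0.163), the muscle α subunit, and Chrna2 (0.120 to 0.143), a brain α subunit of restricted expression, were lowest apart from Chrnb3 in the AdipoRon pool. Which neighbours in this order differ beyond the spread between cultures cannot be said from pool means.

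**Figure D1:**
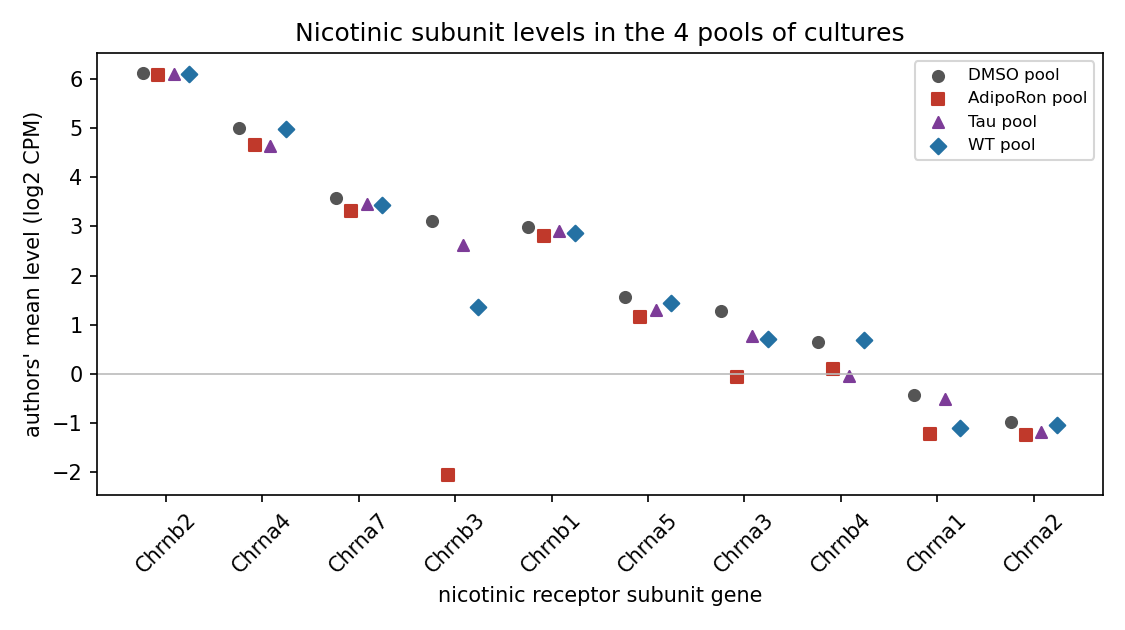
The authors' mean level (log2 CPM, vertical axis) of each of the 10 subunits, 1 point per pool of cultures and no error bars because pool means carry none. The points of Chrnb2 lie within 0.04 of each other, while Chrnb3 runs from 3.12 in the DMSO pool to −2.06 in the AdipoRon pool.

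The AdipoRon and DMSO pools address what 24 hours of the agonist does over both genotypes. Chrnb3 had a mean of 3.12 log2 CPM in the DMSO pool and −2.06 in the AdipoRon pool, or 8.69 and 0.240 CPM. The difference was −5.18 (log2), and no other of the 19693 genes in both tables had a lower one. Among the genes of its own table, Chrnb3 stood at percentile 42.6 with DMSO and 4.85 with AdipoRon. The AdipoRon value lies near the bottom of that table, whose lowest value is −2.85, and with 1 CPM added to both levels the difference was −2.97.

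Chrna3, the α subunit of ganglionic receptors, was the other member lower by at least 1. It had 1.29 log2 CPM with DMSO and −0.07 with AdipoRon, a difference of −1.35, with only 0.853% of genes at or below it. With 1 CPM added it was −0.82 and no longer counted as lower. Its neighbours on chromosome 9 differed less, Chrnb4 by −0.56 (0.66 to 0.10 log2 CPM) and Chrna5 by −0.42 (1.57 to 1.15). Counting may not separate Chrna3 from Chrna5 fully, since 790 exonic bases of theirs overlap on opposite strands, 14.7% of those of Chrna3 and 12.2% of those of Chrna5, and the use of strand is not given in the sources used here.

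The subunits that ranked highest per length in every pool stood much closer between the treatments. Chrnb2 had 6.12 log2 CPM with DMSO and 6.08 with AdipoRon, a difference of −0.04, which leaves 0.972 of its linear level with DMSO. Of its exonic bases, 16.2% overlap Adar on the opposite strand. Chrna4 had 4.99 and 4.65, a difference of −0.34. Chrna7 had 3.57 and 3.31, a difference of −0.26. Chrnb1 had 2.99 and 2.80, a difference of −0.19. Per length, Chrnb3 stood near Chrna7 with DMSO (1.89 and 2.12 CPM per kb) and far below it with AdipoRon (0.0523 and 1.76). The 2 lowest members differed by −0.79 (Chrna1, −0.44 to −1.23) and −0.25 (Chrna2, −0.98 to −1.23). Both lie near the bottom of the tables, and 77.4% of the exonic bases of Chrna2 overlap those of Ptk2b on the opposite strand.

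All 10 differences were below 0, as were 8870 of the 19693 genes. Of the members, 2 were lower by at least 1 and 0 higher, beside 1.75% of all genes lower and 0.675% higher. The members' median was −0.38, and −0.34 without Chrnb3, beside a median of 0.02 and a span from −0.58 to 0.47 (5th to 95th percentile) over all genes. Apart from Chrnb3 and Chrna3, only Chrna1 lay outside that span, and no statement about the family as a whole rests on a test.

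**Figure D2:**
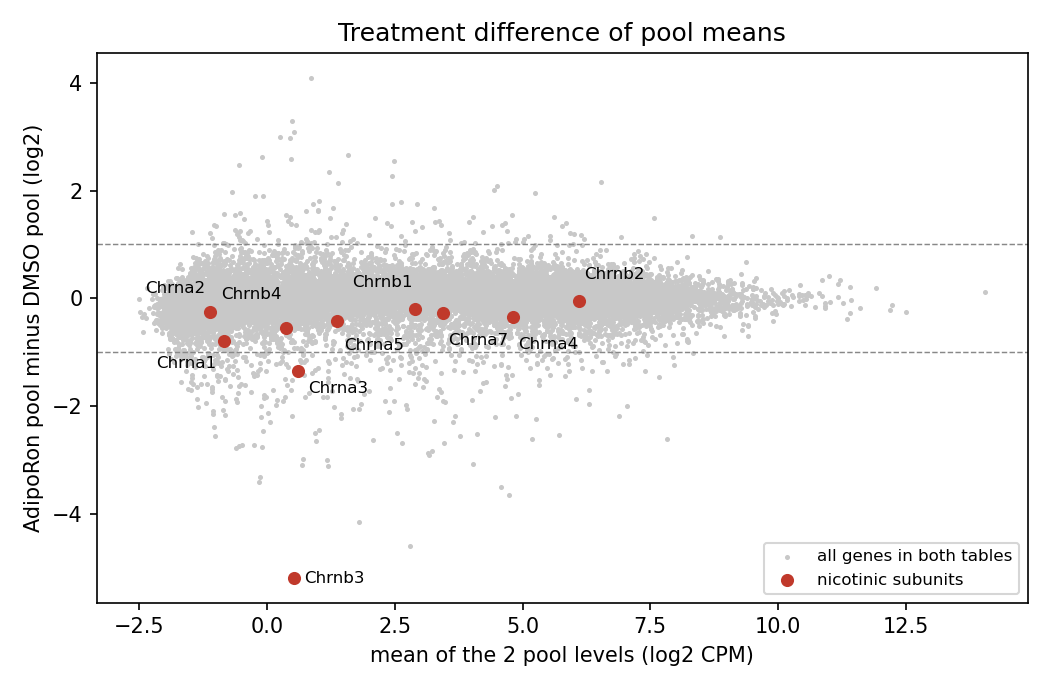
Difference of the AdipoRon and DMSO pool means (log2, vertical axis) against the mean of both levels (log2 CPM), with each of 19693 genes in grey and the 10 subunits in red. Dashed lines mark differences of 1, and Chrnb3 is the lowest point of the plot at −5.18 while Chrnb2 lies at −0.04.

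The Tau and WT pools address the difference between genotypes over both treatments. The WT pool holds 6 AdipoRon cultures of 11 and the Tau pool 5 of 10, so a gene that differs with AdipoRon differs a little between these pools for that reason. Chrnb3 had 2.63 log2 CPM in the Tau pool and 1.37 in the WT pool, or 6.17 and 2.58 CPM. It was 1.26 (log2) or 2.39-fold higher in Tau, and only 4 of 19890 genes, itself included, had a difference that high. With 1 CPM added the difference was 1.00.

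No other subunit reached 1 in either direction. Chrna1 was 0.60 higher in the Tau pool (−0.51 against −1.10 log2 CPM), while Chrnb4 was 0.73 lower there (−0.04 against 0.68) and Chrna4 was 0.34 lower (4.64 against 4.98). Those 3 differences lay at percentiles 97.6, 1.36 and 6.13 of all genes. Chrnb2 (0.01), Chrna7 (0.02), Chrnb1 (0.03) and Chrna3 (0.07) stood at nearly equal levels, and Chrna2 and Chrna5 differed by −0.13 and −0.14. In all, 1 of 10 members was higher by at least 1 and 0 lower, beside 0.126% and 0.508% of the 19890 genes. The members' median was 0.01, beside 0.002 over all genes.

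Chrna4 thus differed by −0.34 in both subtractions and Chrnb2 by 0.04 or less in size, whereas Chrnb3 was lower with AdipoRon and higher in Tau. Chrna3 was lower with AdipoRon by 1.35 and nearly level between genotypes. Chrnb4 was lower in both, by 0.56 with AdipoRon and by 0.73 in Tau.

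**Figure D3:**
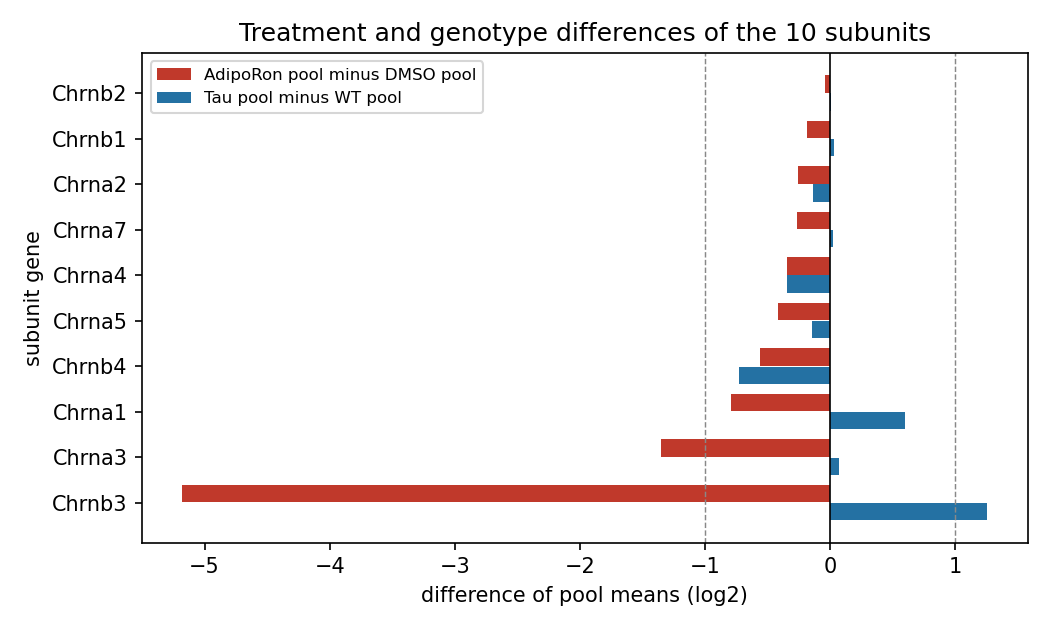
Differences of pool means (log2, horizontal axis) for each subunit, AdipoRon minus DMSO in red and Tau minus WT in blue, with dashed lines at 1 in either direction. Chrnb3 is the only subunit with bars past both lines, at −5.18 and 1.26.

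The 4 pool means do not fix the 4 group means, but because a level cannot be below 0 they limit them, if the authors' mean is taken as an average of CPM over the cultures. Weighted by cultures, the AdipoRon and DMSO pools summed to the same level as the Tau and WT pools to within 5% for all 19399 genes, and for the members the ratio was 0.993 to 1.01. For Chrnb3 the limits were narrow. Its mean lay between 11.8 and 12.3 CPM in Tau with DMSO and between 5.15 and 5.68 in WT with DMSO. With AdipoRon it lay between 0 and 0.528 CPM in Tau and between 0 and 0.440 in WT.

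Chrnb3 was therefore higher with DMSO than with AdipoRon in each genotype, at least 22.3-fold in Tau and at least 11.7-fold in WT. With DMSO the limits placed it 2.07 to 2.39-fold higher in Tau than in WT, untested against the spread between cultures. Under AdipoRon the limits did not fix which genotype was higher. These limits rest on taking the authors' mean as an average of CPM over the cultures, and the pool sums were first adjusted so that they closed exactly. The limits hold no sampling error, so they do not say how far cultures spread around the group means. For the other 9 members the limits left the direction of all 4 ratios open. The mean of Chrnb2, for example, could lie anywhere from 0 to 137 CPM in Tau with DMSO and from 9.45 to 124 CPM in WT with AdipoRon.

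**Figure D4:**
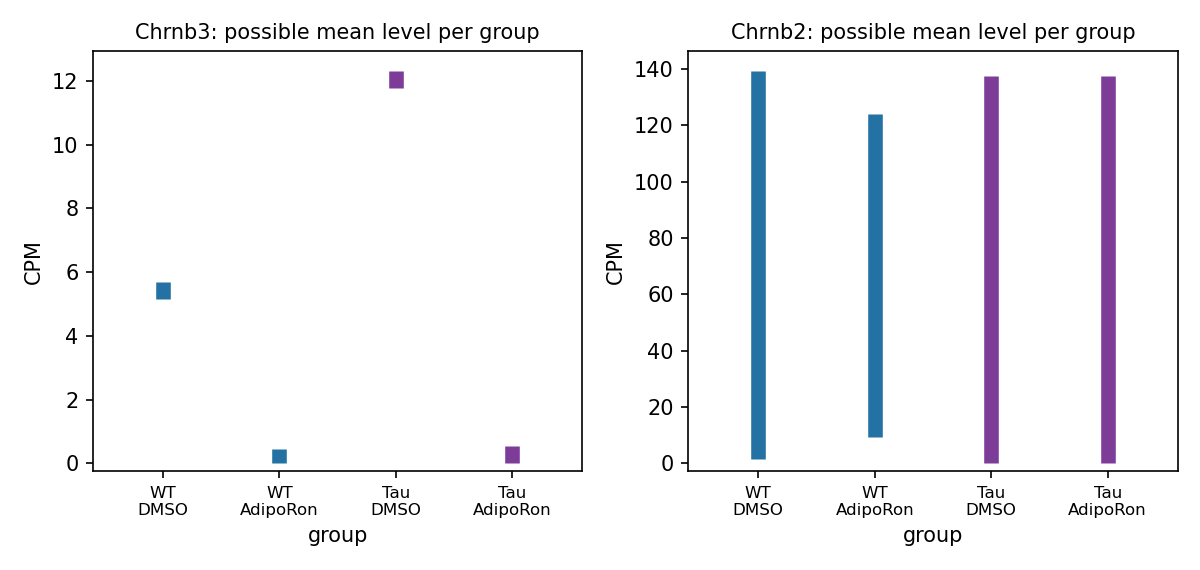
Range of mean levels (CPM, vertical axis, a separate scale for each panel) that the 4 pool means allow in each group, for Chrnb3 and Chrnb2. The ranges of Chrnb3 are narrow, near 12 CPM in Tau with DMSO and under 0.528 with AdipoRon, while those of Chrnb2 cover most of the axis in each group; bars are limits, not errors.

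Other cholinergic genes were taken from a list of 25, of which 21 were listed in at least 1 table. The nicotinic subunits Chrna6, the usual partner of β3, Chrnd, Chrne and Chrng were not listed in any of the tables used here. Between AdipoRon and DMSO, 1 of the 18 genes in both tables was lower by at least 1, 0 were higher, 11 were below 0 and the median was −0.00. Between Tau and WT, 0 of 19 were lower or higher by at least 1, 10 were below 0 and the median was −0.02. Both medians lay close to those of all genes.

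The 1 gene lower with AdipoRon was Colq, the collagen tail that anchors acetylcholinesterase. It had 1.52 log2 CPM with DMSO and −1.79 with AdipoRon, a difference of −3.31 and the seventh lowest of all genes. The AdipoRon value lies near the bottom of that pool, whose lowest value is −2.85. Ache, acetylcholinesterase itself, differed by −0.83 (6.73 to 5.90 log2 CPM), and Slc44a1, a choline transporter, by −0.00 (6.56 in both). The genotype differences of these genes were 0.55 for Colq, −0.02 for Ache and −0.48 for Slc44a1. Prima1, of the same group and named after its value was seen, differed the other way with AdipoRon, by 0.50 (0.97 to 1.47 log2 CPM).

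Genes for proteins that assemble or modulate nicotinic receptors ranged in level from −1.82 to 9.41 log2 CPM. Lynx1, a membrane-tethered modulator of the receptors, had 9.41 log2 CPM with DMSO and 9.09 with AdipoRon, a difference of −0.33. Ric3, a chaperone of receptor assembly, had 6.45 in both, a difference of −0.01. The differences of the 10 genes of this group in both tables ranged from −0.35 to 0.88. Ly6h (0.88), Ly6g6e (0.66) and Lypd1 (0.54), named after their values were seen, lay above the 95th percentile of all genes (0.47). Chrna10, a subunit known from cochlear hair cells, was near −0.90 with DMSO and −0.04 with AdipoRon, a difference of 0.86, and Chrna9 had a value only in the Tau and AdipoRon pools (−1.84 and −1.95).

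By a measure of likeness over the 4 pools (distance between values after the mean of each gene was subtracted, 19398 genes compared), the 5 genes nearest to Chrnb3 were Adcyap1 (0.71), Lyve1 (1.24), Nptx2 (1.31), Kcnv1 (1.48) and Sost (1.49). Adcyap1 encodes the neuropeptide PACAP and Nptx2 a neuronal pentraxin of excitatory synapses. Their AdipoRon minus DMSO differences were −4.59, −4.14, −3.65, −3.51 and −3.40. These are ranks 2 to 6 from the lowest, directly after Chrnb3, so this likeness largely repeats the order of the treatment differences. The genotype difference was 0.49 for Adcyap1, −0.07 for Lyve1, 0.65 for Nptx2, 0.38 for Kcnv1 and 0.88 for Sost, below that of Chrnb3 in each. The pools overlap, so these 4 values are not independent.

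Markers were read for the cell types that the cultures held. In bulk RNA, fewer cells of a type and less RNA per cell cannot be told apart. All 6 neuronal markers were at 7.59 to 10.11 log2 CPM, and differed by −0.29 to −0.12 between the treatments. The 5 astrocyte markers were as high, at 8.07 to 11.04, although AraC had been used. Their summed level was 3770 CPM with DMSO and 4128 with AdipoRon, beside 3156 and 2689 for the neuronal markers. Singly, the astrocyte markers went both ways with AdipoRon: Gfap (0.34), Aldh1l1 (0.42) and Aldoc (0.10) were higher. Aqp4 (−0.23) and Slc1a3 (−0.24) were lower. The 3 inhibitory markers were at 7.96 to 9.40. Of the 4 excitatory markers 1, Neurod6, was lower with AdipoRon by at least 1 (−1.32), beside 1.75% of all genes. The summed level of the 4 excitatory markers was 571 CPM with DMSO and 602 with AdipoRon.

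Of cells in which particular subunits are best known, the cholinergic markers Chat and Slc18a3 were at 1.72 to 2.54 log2 CPM. Slc5a7, the remaining cholinergic marker, was listed only in the WT and AdipoRon pools and lay below Chat and Slc18a3 in both. The dopaminergic markers Th, Slc6a3 and Ddc were at −0.51 to 2.96 log2 CPM. With AdipoRon, Th differed by −0.81 and Slc6a3 by −0.33, while Ddc differed by 0.84 the other way. Of the muscle markers, Ckm, Myog and Myod1 were not listed, and Acta1, Ttn and Des were at −1.26 to 2.29. Beside the genotype differences, the 5 microglial markers summed to 49.3 CPM in the Tau pool and 98.3 in the WT pool. Of these microglial markers, 3 of 5 were lower by at least 1, beside 0.508% of all genes. The 5 oligodendrocyte-lineage markers summed to 455 and 706 CPM. The 4 excitatory markers were higher in the Tau pool, by 0.09 to 0.66 (median 0.41), and summed to 662 and 525 CPM. The 4 listed endothelial and meningeal markers differed by −0.04 to 0.85 and summed to 28.5 and 20.4 CPM, while the 6 neuronal markers differed by 0.02 to 0.21. Their part in the differences of the subunits was not tested.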

How the data were processed

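RNA of 21 cultures was sequenced from poly(A) libraries. Per the study's methods, the authors trimmed reads, aligned them to mm10 with STAR, quantified them with RSEM and compared groups with edgeR. The study's results name GRCm39 and the table names refer to Rsubread, another counting tool, so how reads in overlapping exons were counted is uncertain. Filters and scaling are not given in the sources used here. The deposited tables give each gene's mean level over the cultures of a comparison as log2 CPM, the only values used. They also hold the authors' fold changes, likelihood ratios, p-values and false discovery rates, which were not used. Descriptions of some WT samples point to other tables than the table names, which were followed. The pool sums closed under those names. Closure says little on which pool of a pair is which, since exchanging them would change only the weights of 10 and 11 cultures.

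Differences of log2 CPM, ranks and group limits were computed with Python 3.11.15, numpy 2.4.6, pandas 2.3.3 and matplotlib 3.10.9. The AdipoRon minus DMSO difference and the group limits were run on simulated data in which the genotypes did not differ. Pool means there were built as averages of CPM plus a small constant, so that reading of the authors' mean was not itself tested. Whether the limits held the simulated group means was largely set by this construction. Transcript lengths and overlaps were taken from GENCODE (GRCm39), positions and promoters from RefSeq (GRCm38.p6). Named genes were all members, the cholinergic genes past 1 (log2) and the 2 with the highest mean level in each of their 3 groups, and the 5 genes most like Chrnb3. Members and lists were chosen with earlier results of these data known. Alternatives were median centring, a minimum of 0 log2 CPM, a size of 0.5, a pseudocount of 1 CPM, the 19399 shared genes, other lengths and a subtracted smallest CPM.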

Additional observations from a re-analysis of the deposited data

How the results depend on the processing

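No paired analysis was possible because the values used are means over pools of cultures, and no replicate could be left out for the same reason. Of 188 recomputed values, 156 stayed within the limits set, and none of the members' differences changed sign. Much of this was set in advance. A size of 0.5, the minimum level and the shared genes leave the difference of a compared member as it is. A pseudocount cannot change its sign, so only median centring could. In the treatment difference, 344 genes were lower and 133 higher by at least 1. With only genes of at least 0 log2 CPM, 217 were lower, with a size of 0.5 these were 1259 lower and 859 higher, and with a pseudocount of 1 CPM 169 lower and 65 higher. Members lower were 4 at 0.5 and 1 with the pseudocount in place of 2, and the difference of Chrnb3 was −2.97 with the pseudocount. In the genotype difference, 101 genes were lower and 25 higher. At least 0 log2 CPM left 8 higher, 0.5 gave 699 lower and 839 higher, and the pseudocount 50 lower and 3 higher. At 0.5, 1 member was lower and 2 higher, and the difference of Chrnb3 with the pseudocount was 1.00. The share of lower among called genes was 72.1% for treatment and 59.4% at 0.5, and for genotype 80.2%, with 91.8% above 0 log2 CPM, 45.4% at 0.5, where higher genes outnumbered lower ones, and 94.3% with the pseudocount. The rank of Chrnb3 was 4 in the DMSO pool without length or with all exons (an alternative chosen after seeing the data), and 6 in the WT pool without length. Subtracting the smallest CPM raised the least fold of Chrnb3 to 52.2 in Tau and 27.9 in WT, and gave Chrna3 a ratio of at least 1.01 in WT, which then had a direction. The low levels of Chrnb3 with AdipoRon, Chrna1 and Chrna2 limit what their differences can show.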
